A study of Mus musculus with 14 samples.

Results

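The early secretory pathway carries newly made proteins from the endoplasmic reticulum (ER) to the Golgi apparatus in coated vesicles and returns escaped ER proteins the other way. A module of 41 genes of this pathway was followed through mouse B cells before and after immunization. The genes were picked by symbol, and each was represented by its brightest probe set (a group of oligonucleotides on the array that report 1 transcript). All 41 were measured, among 18193 genes on the array, by 90 probe sets in all. By role they fall into 11 genes of the COPII coat, 9 of the COPI coat and its GTPases, 11 cargo and retrieval receptors, and 10 SNAREs, tethers and ER-Golgi membrane proteins.

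B-cell subsets were sorted from spleens of male C57Bl/Ka mice, and RNA of each sort was amplified and hybridised to Affymetrix arrays. The 3 naive arrays came from unimmunized mice aged 4 to 8 weeks, gated as B220+ CD23+ IgD+ Igλ+ cells with little surface IgM. All other mice had received NP-CGG, a hapten on a carrier protein, precipitated in alum and injected into the peritoneum. The dose was 100 µg, except that the label of plasma replicate 1 gives none. The 4 plasma arrays were sorted 7 days later from mice aged 5 to 9 weeks (B220-low, IgM-low, λ+, syndecan-1+, NP+, PNA-). For the 3 germinal center arrays, mice aged 6 to 10 weeks were taken at day 14 and the gate was NP+ CD38-low PNA+. The 4 memory arrays came from mice aged 14 to 18 weeks, 10 to 12 weeks after the injection, and held NP+ CD38-high cells without IgM, IgD or PNA. Every sort left out cells with CD3, CD4, CD5, CD8, CD11b, Gr-1 or Ter119. Subset, age and time since immunization therefore cannot be told apart. The labels do not say whether replicates came from separate animals, so the p-values measure the spread between these arrays, which may be technical.

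COPII vesicles bud from the ER. The GTPase Sar1, switched on by Preb, recruits the inner coat of Sec23 and Sec24, of which Sec24 selects the cargo, and the outer coat of Sec13 and Sec31 then bends the membrane. COPI vesicles, built from a coat of coatomer subunits under Arf GTPases, bring ER residents and receptors back from the Golgi. SNAREs and tethers dock and fuse the vesicles. Plasma cells secrete antibody and are known for a large ER, whereas naive, germinal center and memory B cells carry their immunoglobulin mainly at the surface.

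The summed marker lists set the plasma and germinal center sorts apart, but not the naive and memory sorts. Summed over 8 plasma cell genes, intensity was between 28822.6 and 39265 on the plasma arrays and at most 6488 elsewhere. The 5 measured genes of naive and mature B cells summed to 627 to 1256 on plasma arrays and to at least 8485 on all others. On memory arrays these genes reached 18637 to 20421.5, above the 16195.5 to 18545 of naive arrays. The 7 measured germinal center genes summed to 11117 to 15355 in germinal center cells, and to 5642 to 6701 in plasma cells, where Rgs13, Gcsam, Mybl1 and Bcl6 were above background on no array. The other 3, Mki67, S1pr2 and Fas, were above background on plasma arrays and made up nearly all of the sum there. The 6 measured genes of the memory list summed to 2365 to 3548 on memory arrays, which overlapped with 1108 to 2764 on germinal center arrays. They summed to 1800 to 2060 on plasma and 267 to 361 on naive arrays. Of that list, Cd80 was above background on all 4 memory arrays and on no other. The 8 measured genes of the T cell list summed to 835 to 1112 on plasma arrays and to between 94.2 and 118 elsewhere. Most of this was Cd28, at 711 to 963 in plasma cells, a receptor that plasma cells are also known to carry, while Cd3g and Cd8b1 were above background on no plasma array. Of those 8 genes, 4 were higher in plasma than in naive cells (limma) and none lower: Cd28, Cd3e (geometric means 37.4 and 23.0, adjusted p = 0.00293), Cd8a (19.9 and 13.1, adjusted p = 0.00883) and Thy1 (29.1 and 9.27, adjusted p = 0.000186), the last above background on all 4 plasma and no naive arrays. The 9 measured myeloid genes summed to 121 to 269 in plasma cells, 115 to 123 in memory, 129 to 158 in naive and 127 to 138 in germinal center cells, and Itgam, Cd14, S100a8 and S100a9 were above background on no array. Of the 9, Csf1r (71.9 in plasma and 29.3 in naive cells, adjusted p = 0.0178), Lyz2 (26.8 and 10.7, adjusted p = 0.0438) and Cd68 (20.5 and 8.13, adjusted p = 0.00022) were higher in plasma cells and Adgre1 was lower (27.9 and 51.2, adjusted p = 0.00896). The part of T cell and myeloid RNA in the differences of plasma cells was not tested. Background was the brightest unspiked bacterial control, between 11.0 and 16.1 by array, and 38 of the 41 genes lay above it on all 14 arrays. The exceptions were Sec31a, Kdelr3 and Tmed2.

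Against naive cells, plasma cells had 36 of the 41 genes higher and 1 lower (limma, with Benjamini-Hochberg adjustment over all 18193 genes and a threshold of 0.05). Values after ± are standard errors of the fit on the log2 scale. Of all genes, 14.2% rose and 16.1% fell in that comparison. The median log2 fold change of the 41 genes was 1.62, against 0.06 over all genes. Of the 41, 33 were called and rose at least 2-fold, as did 1407 of all 18193 genes. Every role took part, with 9 of 11 COPII genes, all 9 COPI genes, 9 of 11 cargo and retrieval receptors, and 9 of 10 SNAREs, tethers and ER-Golgi membrane proteins higher. The medians by role were 1.80, 1.29, 1.62 and 1.75. Each array measured the pooled RNA of many cells, so more cells expressing a gene and more of its RNA per cell cannot be told apart.

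The same 4 plasma arrays were then set against the other subsets. Against germinal center cells 38 genes rose and 1 fell (all genes: 11.2% and 12.6%), with a median log2 fold change of 1.94. Against memory cells 37 rose and 1 fell (all genes: 17.2% and 16%), with a median of 1.93. In all, 35 of the 41 genes were higher in plasma cells than in each of the other subsets, as were 6.42% of all genes. The remaining genes were Sec24b, Sec24c, Tmed2, Tmed10, Ergic2 and Golgb1. Every plasma array lay above every other array for 36 of the 41 genes, as for 7.11% of all genes, and Sec24b, Tmed2 and Golgb1 were the members whose highest mean was not in plasma cells. These comparisons share the plasma arrays and are not independent of one another.

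**Figure D1:**
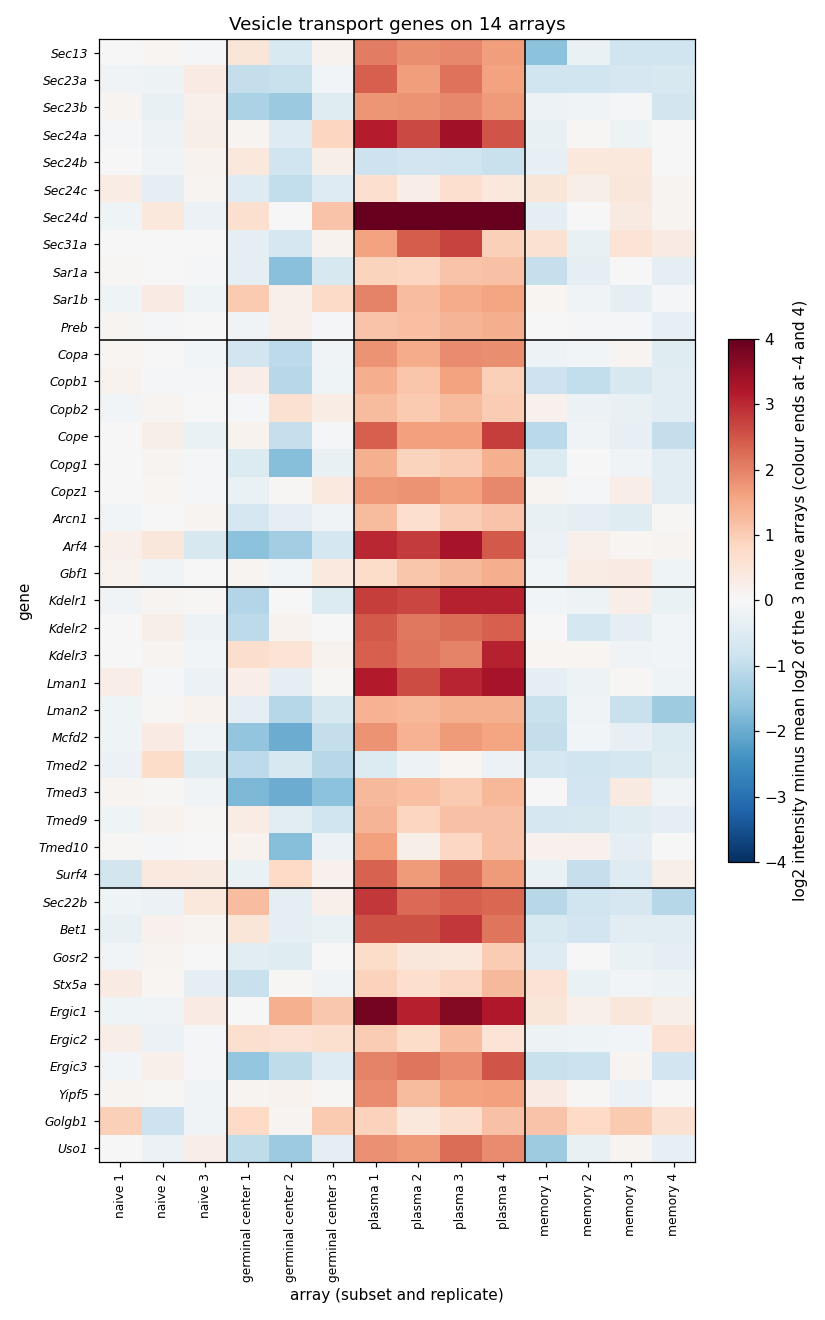
Each row is a gene, grouped by role (from top: COPII, COPI, cargo and retrieval receptors, SNAREs and tethers), and each column an array; the colour is the log2 intensity minus the mean log2 of the 3 naive arrays. The plasma columns are red for all rows but Sec24b and Tmed2 (pale for Golgb1 and Sec24c), and the germinal center columns are blue for Tmed3, Mcfd2, Arf4 and Sec23b.

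Sec24d, 1 of 4 Sec24 cargo adaptors of the COPII coat, changed more than any other of the 41 genes when each was read from its brightest probe set. The second Lman1 probe set, above background on all 14 arrays, rose more in plasma over naive cells, by 6.61. Sec24d measured 52.9, 79.4 and 50.5 on naive, 92.9, 59.6 and 131 on germinal center, 2708, 1649.8, 2351 and 2555 on plasma and 46.6, 59.1, 77.0 and 64.9 on memory arrays. Every plasma array stood far above the 10 others, which overlapped among themselves. The rise over naive cells was 5.25 ± 0.27 (adjusted p = 2.22e-09), or 38.2-fold. It was as clear against germinal center cells (4.66 ± 0.27) and memory cells (5.22 ± 0.25).

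Its paralogue Sec24a, a close relative of Sec24b, also rose. Sec24a was at 206, 184 and 245 on naive, 225, 146 and 381 on germinal center, 1866, 1320.1, 2136 and 1207 on plasma and 171, 217, 181 and 209 on memory arrays. The plasma arrays did not overlap with any others, and the log2 fold change over naive cells was 2.92 ± 0.28 (adjusted p = 1.31e-06). A second, dimmer Sec24a probe set gave 1.10 (adjusted p = 0.0487 over all probe sets) in the same comparison and 0.82 (adjusted p = 0.102) against memory cells.

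Sec24b went the other way. Sec24b gave 247, 220.4 and 266 on naive, 328, 139 and 286 on germinal center, 137, 142, 140.4 and 132 on plasma and 196, 328, 328 and 249 on memory arrays. The plasma arrays were all below all naive and memory arrays, while germinal center replicate 2, at 139, lay within their range. The log2 change was -0.82 ± 0.25 (adjusted p = 0.0224) against naive cells, -0.78 ± 0.25 (adjusted p = 0.038) against germinal center cells and -0.97 ± 0.23 (adjusted p = 0.00477) against memory cells. The fall from naive cells missed the threshold after quantile normalization (-0.56, adjusted p = 0.0593), with an intensity floor of 16 (adjusted p = 0.0508), with the actin ratio of each array as a covariate (-0.56, adjusted p = 0.0785), and without naive replicate 1 (adjusted p = 0.0652) or naive replicate 3 (adjusted p = 0.0787). The fall from germinal center cells missed it with arrays centred on the median of all genes (adjusted p = 0.0593), with the floor of 16 (adjusted p = 0.0767), without any 1 of the plasma arrays and without germinal center replicate 1 (-0.54, adjusted p = 0.181) or replicate 3 (-0.63, adjusted p = 0.141). The only other Sec24b probe set was above background on 1 of 14 arrays.

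Sec24c, the closest relative of Sec24d, was bright in every subset. Sec24c read 2049, 1269 and 1793 on naive, 1171, 851 and 1168 on germinal center, 2686, 2015, 2646 and 2213 on plasma and 2343, 1968, 2311 and 1803 on memory arrays. Plasma and memory arrays overlapped, plasma arrays overlapped with naive ones, and the germinal center arrays lay below all others. Its difference between plasma and naive cells was 0.51 ± 0.19 (adjusted p = 0.0527), which missed the threshold. That value passed after quantile normalization (0.60, adjusted p = 0.00913), with arrays centred on bright genes (0.75, adjusted p = 0.00293), and without naive replicate 1, plasma replicate 2 or germinal center replicate 2.

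The 4 Sec24 genes thus differed in how they moved, and the pairwise test was applied to the difference of their log2 values on each array. In an exact permutation test of the F statistic over all 4204200 ways to assign 14 arrays to the 4 subsets, each of the 6 pairs varied over the subsets, with adjusted p between 0.000153 and 0.00179 over 23 paralogue pairs. From naive to plasma cells, the change of Sec24a minus that of Sec24d was -2.34 (95% interval -2.98 to -1.70). That of Sec24c minus Sec24d was -4.75 (-5.47 to -4.02), so Sec24d rose more than either. Sec24a and Sec24b moved apart by 3.74 (3.15 to 4.33). From naive to memory cells, all 6 intervals held 0.

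Promoter stretches of the 4 genes, which moved so differently, are given from position -80 to -1 before the transcription start, 5′ to 3′ on the gene's strand (RefSeq, GRCm38.p6). Capitals mark the core of the unfolded protein response element (UPRE), the letters TGACGTGG, which is known to be bound by XBP1 and ATF6.
Sec24a (chr11:51756835-51756914, minus strand): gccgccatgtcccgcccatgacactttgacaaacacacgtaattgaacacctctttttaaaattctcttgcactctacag
Sec24b (chr3:130060908-130060987, minus strand): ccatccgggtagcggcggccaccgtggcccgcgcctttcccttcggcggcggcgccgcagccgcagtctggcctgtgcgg
Sec24c (chr14:20674241-20674320, plus strand): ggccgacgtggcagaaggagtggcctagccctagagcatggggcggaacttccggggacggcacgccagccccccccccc
Sec24d (chr3:123267416-123267495, plus strand): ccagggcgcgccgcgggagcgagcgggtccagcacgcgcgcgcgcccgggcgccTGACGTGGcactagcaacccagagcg
Among the 4, only the Sec24d window of 300 bases (250 before to 50 after the start) held the UPRE core, beginning at position -26.

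The partners of Sec24 in the inner coat rose together. Sec23 activates the GTPase of Sar1 and binds Sec24. Sec23a measured 153, 148 and 214 on naive, 88.2, 92.2 and 158 on germinal center, 883, 538, 765 and 515 on plasma and 97.7, 96.7, 105 and 109.7 on memory arrays. Sec23b was at 295, 219 and 312 on naive, 113, 97.5 and 194 on germinal center, 935, 943, 1029 and 892 on plasma and 235, 245, 259 and 164 on memory arrays. All plasma arrays were above all others for both genes. Sec23a rose over naive cells by 1.96 ± 0.23 and Sec23b by 1.80 ± 0.22, and their difference, 0.16, had a 95% interval from -0.35 to 0.67. The pair varied over the 4 subsets (exact permutation, adjusted p = 0.0306), but not without plasma replicate 3, germinal center replicate 2 or 3, or memory replicate 1, 2 or 3, and from germinal center to memory cells the change of Sec23a minus that of Sec23b was -0.88 (-1.39 to -0.37).

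Sar1a and Sar1b are the GTPases that start the coat. Sar1a gave 1469, 1445 and 1347 on naive, 1094, 444 and 909 on germinal center, 2628, 2583, 3140.5 and 3222 on plasma and 745, 1086, 1390.4 and 1080.5 on memory arrays. Sar1b read 934, 1304 and 937 on naive, 2143, 1215 and 1779 on germinal center, 4143, 2475, 2955 and 3152 on plasma and 1098, 948, 811 and 986 on memory arrays. Plasma arrays were the highest for both. Sar1a rose by 1.02 ± 0.26 and Sar1b by 1.58 ± 0.21 over naive cells, with a difference of -0.56 (-1.24 to 0.12). In germinal center cells they parted, Sar1a being lower than in naive cells and Sar1b at 0.67 ± 0.23 (adjusted p = 0.0532, which missed the threshold), a difference of -1.57 (-2.30 to -0.85). This parting rests on the brightest Sar1a probe set and on the fit without the actin ratio described with the germinal center cells: a second probe set, above background on 13 arrays, gave 0.40 (adjusted p = 0.455), and with that ratio as a covariate Sar1a was at -0.20 (adjusted p = 0.884). Over the 4 subsets the pair varied (exact permutation, adjusted p = 0.00849). The second Sar1a probe set gave a larger rise in plasma cells, 3.41.

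The outer coat and the Sar1 exchange factor rose as well. Sec13 read 347 to 387 on naive, 241 to 517 on germinal center, 1181 to 1528 on plasma and 118 to 305 on memory arrays, a rise of 1.88 ± 0.28 over naive cells. Its partner Sec31a was dim, at 18.3 to 18.9 on naive and 36.2 to 122 on plasma arrays, and above background on 2 of 3 germinal center arrays. It rose by 1.92 ± 0.36. Preb, which loads Sar1 with GTP, went from 2758 to 3196 on naive arrays to 6540.0 to 8052 on plasma arrays, a rise of 1.30 ± 0.13. Adjusted p for the 9 COPII genes that rose lay between 2.22e-09 and 0.00834.

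**Figure D2:**
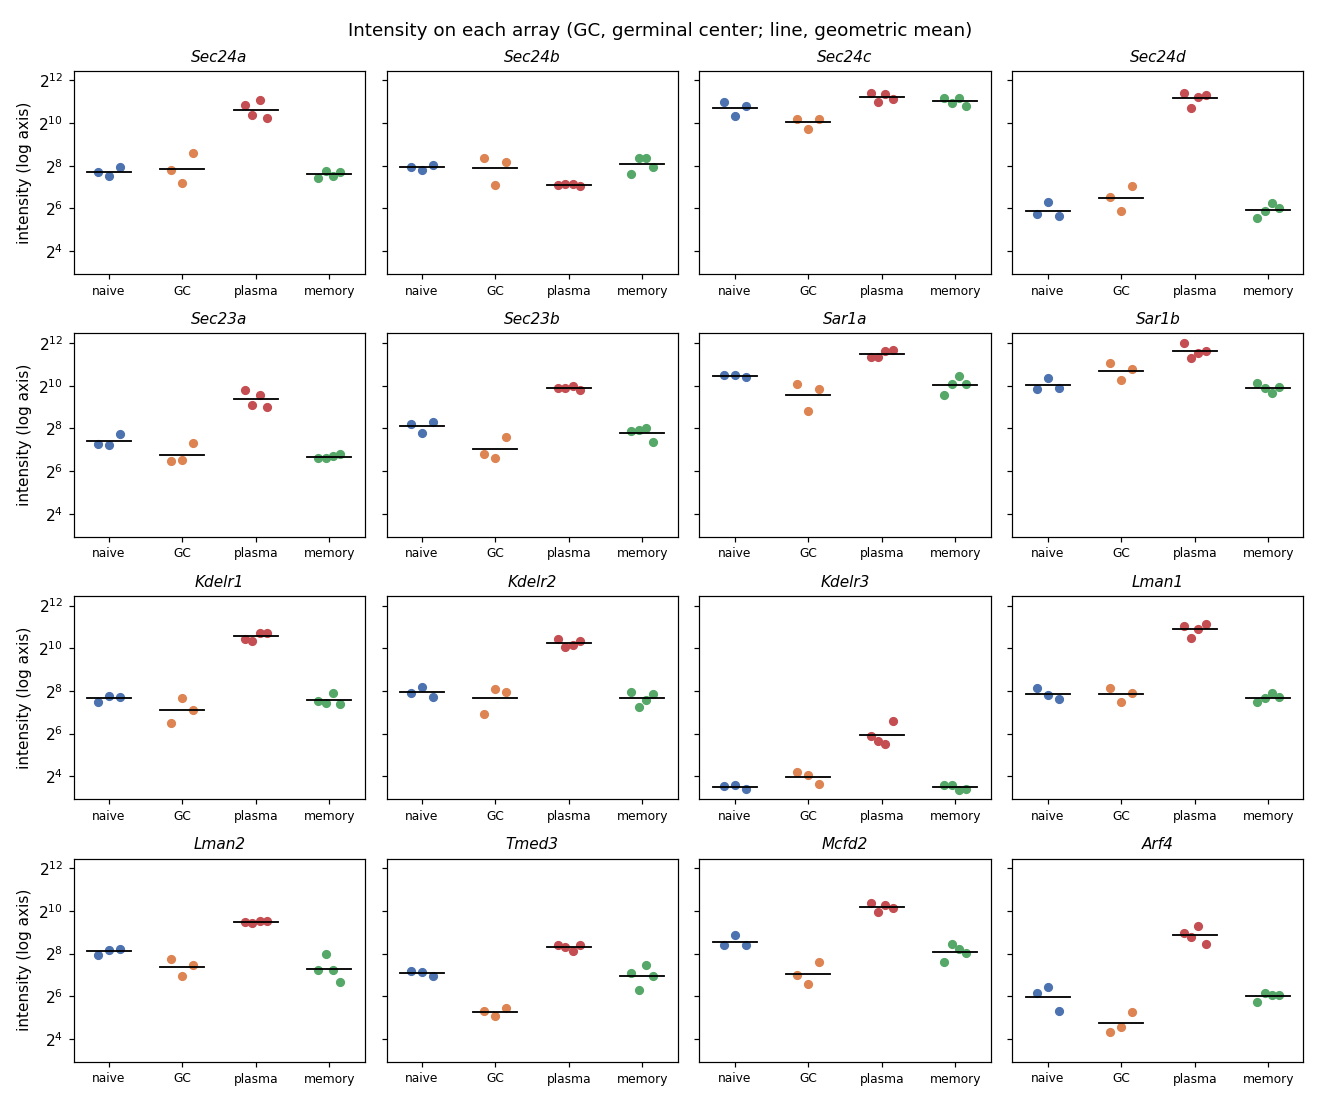
Intensity on every array (log axis) for 16 genes in naive, germinal center (GC), plasma and memory cells; points are arrays and lines geometric means. Sec24d, Sec24a and Lman1 stand highest in plasma cells, Sec24b is lowest there, and Tmed3, Mcfd2 and Arf4 are lowest in germinal center cells.

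All 9 genes of the COPI group rose in plasma cells, by 1.01 to 2.90 against naive cells, with adjusted p between 1.56e-06 and 0.00403. Arf4, an Arf GTPase of the early Golgi, changed the most. Arf4 measured 71.8, 85.7 and 40.1 on naive, 20.0, 23.9 and 38.8 on germinal center, 505, 439.8, 622 and 344 on plasma and 52.9, 71.6, 65.8 and 67.0 on memory arrays. Plasma arrays were above all others and germinal center arrays below all others. Its rise over naive cells was 2.90 ± 0.28 (adjusted p = 1.56e-06). Of its 4 probe sets, those above background on 13 or 14 arrays rose by 2.90, 1.26 and 3.92, and the fourth was above background on no array.

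Among the coatomer subunits, Cope (ε-COP) rose by 2.11 ± 0.33, Copz1 (ζ1-COP) by 1.76 ± 0.17 and Copa (α-COP) by 1.75 ± 0.20. Copb1 (β-COP), Copg1 (γ1-COP), Copb2 (β′-COP) and Arcn1 (δ-COP) rose by 1.29, 1.18, 1.16 and 1.01. Gbf1, which switches Arf GTPases on at the Golgi, rose by 1.15 ± 0.19. Naive and plasma arrays did not overlap for any of them. Copa read 678 to 774 on naive and 2051 to 2691 on plasma arrays, and Arcn1, with the smallest rise, 949 to 1084 and 1603 to 2446. The second probe set of Copa, above background on all 14 arrays, did not follow the first (-0.12 against naive, adjusted p = 0.842), and that of Copg1, also above background on all 14, gave 0.52 (adjusted p = 0.118) against naive and 0.57 (adjusted p = 0.0567) against memory cells, whereas those of Arcn1 and Copb2 rose by 2.34 and 1.89.

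2 coatomer subunits have a paralogue outside the 41 genes. Copg1 was at 711, 775 and 680.0 on naive, 489, 221 and 590.0 on germinal center, 1918, 1324, 1459.7 and 1935 on plasma and 495, 726, 659 and 528 on memory arrays. Copg2, γ2-COP, read 57.4 to 78.1 on naive, 23.0 to 27.8 on germinal center, 21.6 to 49.4 on plasma and 29.0 to 54.0 on memory arrays. While Copg1 rose in plasma cells, Copg2 fell, by 0.97 ± 0.25 on the log2 scale (adjusted p = 0.00801), and it also fell in germinal center cells, by 1.37 ± 0.27 (adjusted p = 0.00201). The pair parted by 2.16 (1.26 to 3.06) from naive to plasma cells and varied over the 4 subsets (exact permutation, adjusted p = 0.00342). Copz1 gave 206, 214 and 191 on naive, 171, 209.8 and 266 on germinal center, 670.5, 703, 618 and 772 on plasma and 218, 196, 244 and 150.5 on memory arrays. Copz2, ζ2-COP, was above background on all 4 plasma arrays (25.2 to 40.6), on 1 memory array and on no naive or germinal center array, so that it was at least 2.50-fold higher in plasma than in naive cells (adjusted p = 3.86e-06). No difference between Copz1 and Copz2 over the subsets passed (exact permutation, adjusted p = 0.91; plasma against naive -0.13, -0.86 to 0.60), although the Copz2 side rests on signals at background. With an intensity floor of 16 the pair passed.

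KDEL receptors catch escaped ER chaperones in the Golgi and send them back in COPI vesicles. Kdelr1 read 181, 217 and 207 on naive, 90.2, 201 and 138 on germinal center, 1379.7, 1292, 1683 and 1707 on plasma and 185, 175, 242 and 167 on memory arrays. Kdelr2 measured 242, 292 and 214 on naive, 119, 270.3 and 249.5 on germinal center, 1363, 1064, 1157 and 1297 on plasma and 247, 151, 192 and 231 on memory arrays. Kdelr3 was at 11.5, 12.3 and 10.5 on naive, 18.5, 16.7 and 12.5 on germinal center, 59.9, 50.1, 45.6 and 97.2 on plasma and 12.1, 12.0, 10.3 and 10.6 on memory arrays. For each of the 3 receptors the plasma arrays were above all others. Kdelr1 rose over naive cells by 2.90 ± 0.22 (adjusted p = 1.71e-07). Kdelr2 rose by 2.30 ± 0.25 and Kdelr3 by 2.40 ± 0.22. Kdelr3 was above background on 1 naive, 2 germinal center and 1 memory array, so its fold is uncertain on that side. Kdelr1 rose more than Kdelr2 by 0.61 (0.10 to 1.11) with the brightest probe sets, but the second Kdelr2 probe set, above background on all 14 arrays, rose by 3.61, more than the only Kdelr1 probe set (2.90), so the order of these genes depends on the probe set. Both pairs with Kdelr1 varied over the subsets (exact permutation, adjusted p = 0.0306 with Kdelr2 and 0.00179 with Kdelr3), the first not without plasma replicate 2, 3 or 4 or germinal center replicate 3. Kdelr2 and Kdelr3 did not pass that exact permutation test (adjusted p = 0.275), and the interval of their difference from naive to plasma cells ran from -0.94 to 0.73.

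Lman1 (ERGIC-53) and Lman2 (VIP36) are lectins that carry glycoproteins, and Mcfd2 is the partner with which Lman1 carries clotting factors. Lman1 gave 278, 228 and 199 on naive, 282, 178 and 243 on germinal center, 2113, 1412, 1916 and 2277 on plasma and 179, 202, 241 and 208 on memory arrays. Lman2 read 243, 283 and 301 on naive, 215, 126 and 176 on germinal center, 719.6, 691, 730.4 and 743 on plasma and 148, 249, 149.7 and 103 on memory arrays. The plasma arrays of both were above all others, and those of Lman2 lay close together. Lman1 rose over naive cells by 3.03 ± 0.20 (adjusted p = 2.78e-08), and Lman2 by 1.39 ± 0.24. Lman1 gained 1.64 more than Lman2 (0.98 to 2.29), and the pair varied over the subsets (exact permutation, adjusted p = 0.00338). Lman1 has 5 probe sets on the array, which rose by 0.51 to 6.61, so the size of its rise depends on the probe set. Mcfd2 measured 333, 472 and 341 on naive, 126, 94.4 and 195 on germinal center, 1320.2, 983, 1230.0 and 1119 on plasma and 194, 351, 302 and 261 on memory arrays. Mcfd2 was highest on the plasma arrays and lowest on 2 of the germinal center arrays, and rose over naive cells by 1.62 ± 0.24.

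The p24 proteins of the Tmed family are transmembrane cargo receptors that cycle in both kinds of vesicle. Tmed3 was at 147, 141 and 123 on naive, 39.4, 34.2 and 44.0 on germinal center, 335, 316, 279 and 343 on plasma and 135, 79.7, 175 and 125 on memory arrays. Tmed9 gave 1595, 1982 and 1894 on naive, 2208, 1349.7 and 1039.6 on germinal center, 4641, 3317, 4073 and 4099 on plasma and 1137, 1156, 1302 and 1411 on memory arrays. Tmed3 rose in plasma over naive cells by 1.22 ± 0.21 and Tmed9 by 1.14 ± 0.21, and plasma arrays were above all others for both. Tmed10 read 677, 637 and 649 on naive, 728, 199.9 and 557 on germinal center, 2027, 777, 1159 and 1470.3 on plasma and 733, 735, 504 and 668 on memory arrays. Tmed10 lay highest on the plasma arrays, but these spread from 777 to 2027, and its difference from naive cells, 0.97 ± 0.38 (adjusted p = 0.0684), missed the threshold. Among other settings, it passed without plasma replicate 2 (1.21, adjusted p = 0.0278) and without germinal center replicate 1 or 2. Its rise over memory cells (0.97 ± 0.35, adjusted p = 0.0453) was lost without any 1 naive, plasma or memory array, plasma replicate 2 excepted. Tmed2 measured 12.1, 23.4 and 10.1 on naive, 6.86, 9.06 and 6.53 on germinal center, 9.62, 12.2, 14.9 and 12.1 on plasma and 8.65, 8.25, 8.64 and 10.1 on memory arrays. Tmed2 was above background on 1 naive and 1 plasma array, and on no germinal center or memory array, so its differences say little about its RNA. Tmed3 and Tmed9 varied against each other over the subsets (exact permutation, adjusted p = 0.00311). Tmed2 also passed against both (adjusted p = 0.00148 and 0.0115), but these pairs set a signal at background against a measured gene. Surf4, a receptor for soluble cargo, rose by 2.00 ± 0.33, from 218 to 478 on naive to 1184 to 1881 on plasma arrays, and its 5 probe sets rose by 2.00 to 4.48.

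Ergic1, Ergic2 and Ergic3 span the membrane of the ER-Golgi intermediate compartment. Ergic1 was at 82.6, 84.6 and 116 on naive, 94.6, 250.1 and 197 on germinal center, 1333, 804, 1189 and 864 on plasma and 129, 106, 128 and 109 on memory arrays. Ergic2 gave 481, 338 and 386 on naive, 619, 587 and 619.9 on germinal center, 799, 659.7, 929 and 574 on plasma and 343, 356, 365 and 596 on memory arrays. Ergic3 read 123, 152 and 124 on naive, 45.1, 65.6 and 91.5 on germinal center, 517, 586, 491 and 749 on plasma and 71.4, 73.1, 143 and 77.3 on memory arrays. Ergic1 and Ergic3 were above all others on the plasma arrays, whereas the plasma arrays of Ergic2 overlapped with germinal center arrays and with memory replicate 4. Ergic1 rose over naive cells by 3.46 ± 0.28 (adjusted p = 2.63e-07), Ergic3 by 2.13 ± 0.27 and Ergic2 by 0.87 ± 0.21. All 3 pairs varied over the subsets (exact permutation, adjusted p between 0.000945 and 0.00755), but Ergic1 with Ergic2 did not pass with the mean of all probe sets. Ergic1 gained 2.58 more than Ergic2 (1.77 to 3.40) and 1.33 more than Ergic3 (0.51 to 2.15) from naive to plasma cells. Ergic1 has 5 probe sets, which gave 0.25 to 5.23, and the 3 of Ergic2 gave 0.64 to 1.98. The size of their difference therefore depends on the probe set.

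SNAREs of ER-Golgi transport pull vesicle and target membranes together. Bet1 read 69.3 to 96.6 on naive and 375 to 604 on plasma arrays, a rise of 2.52 ± 0.21. Sec22b read 172 to 271 and 978 to 1451, a rise of 2.44 ± 0.30. Smaller rises were seen for Stx5a, their syntaxin partner, at 0.92 ± 0.26, and for Gosr2, at 0.66 ± 0.17. The rise of Stx5a was not called without naive replicate 3 (0.73, adjusted p = 0.08), and a second Gosr2 probe set gave a much larger rise, 3.41. Uso1 (p115), the tether that links COPI and COPII vesicles to Golgi membranes, read 262 to 373 on naive and 1010.3 to 1459.5 on plasma arrays and rose by 1.91 ± 0.32. Yipf5, a Golgi membrane protein, rose by 1.60 ± 0.16, from 775 to 919 on naive arrays to 2041 to 3178 on plasma arrays. Golgb1 (giantin), a large Golgi tether, read 82.7 to 281 on naive and 195 to 326 on plasma arrays. Its arrays overlapped between all subsets, and its difference of 0.80 ± 0.34 (adjusted p = 0.0938) passed only without naive replicate 1 (1.28, adjusted p = 0.0046) or under 2 other scalings (1.03 and 1.05).

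**Figure D3:**
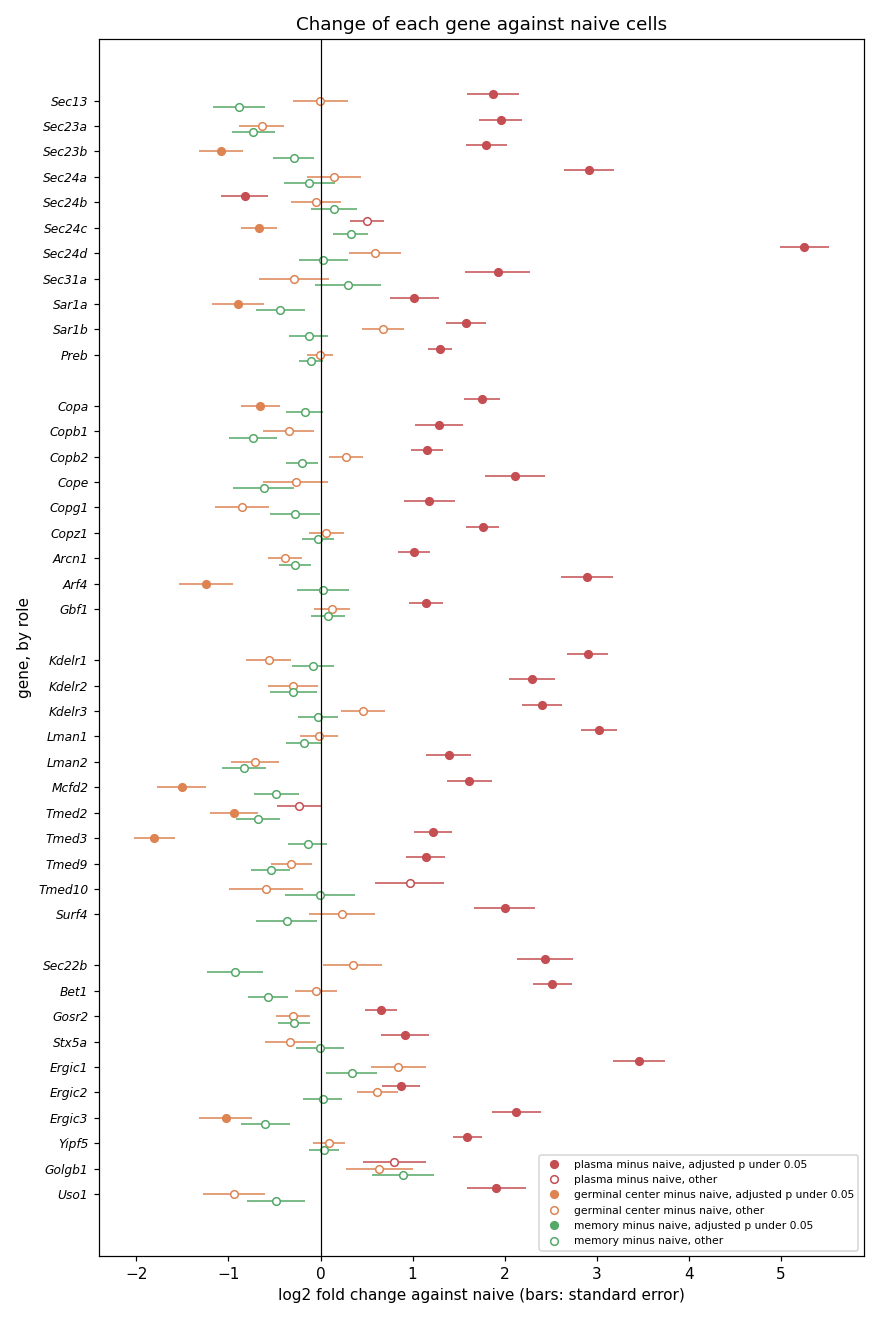
Log2 fold change against naive cells for plasma (red), germinal center (orange) and memory (green) cells, with the standard error; filled points passed an adjusted p under 0.05 in limma. 36 red points are filled on the right and 1, Sec24b, on the left; 9 orange points are filled, all on the left; no green point is filled.

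Germinal center cells differed from naive cells in fewer of these genes and in the other direction. In limma none of the 41 rose and 9 fell, or 22%, where 8.37% of all genes rose and 11.1% fell. At an unadjusted p under 0.05 there were 17 genes, 3 of them higher. The share of all genes at that unadjusted threshold was not counted. The median log2 fold change of the 41 genes was -0.30, against 0.06 over all genes and -0.20 over 6116 bright ones (mean log2 intensity of at least 6). Tmed3, a cargo receptor of the p24 family, fell the most, by 1.81 ± 0.22 on the log2 scale (adjusted p = 3.62e-05). Its germinal center arrays, at 34.2 to 44.0, lay below every other array. Mcfd2 fell by 1.51 ± 0.26 (adjusted p = 0.000761), Arf4 by 1.24 ± 0.30 (adjusted p = 0.00814) and Sec23b by 1.08 ± 0.24 (adjusted p = 0.00484), with no overlap with naive arrays. The fall of Arf4 was that of its brightest probe set, since those next in brightness gave -0.12 (adjusted p = 0.874) and 0.69 (adjusted p = 0.0516), and the mean of all 4 gave -0.16 (adjusted p = 0.529). Ergic3 fell by 1.03 ± 0.29, Sar1a by 0.90 ± 0.28, Sec24c by 0.67 ± 0.20 and Copa by 0.66 ± 0.21, with adjusted p between 0.0196 and 0.0426. The second probe sets of Ergic3 (-1.15) and Copa (-1.17) fell too. Tmed2 was also called (-0.94, adjusted p = 0.0189), but only as at least 1.00-fold lower, since no germinal center array was above background.

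The RNA of the germinal center arrays differed in another respect. The ratio of the 3′ to the middle probe set of actin, a common measure of RNA integrity and of the length of the amplified RNA, was 6.11 to 17.6 on the germinal center arrays, 4.39 to 5.30 on naive, 5.47 to 6.91 on plasma and 4.15 to 5.33 on memory arrays. The same ratio of Gapdh did not set the germinal center arrays apart, at 8.23 to 10.9 against 9.44 to 12.0 on naive and 11.0 to 13.0 on memory arrays, and was lowest on plasma arrays, at 5.45 to 8.41. Its part in the differences was not tested. With the actin ratio as a covariate, Tmed3 was the single gene of the 9 still called, and Sec24d was called higher (1.41, adjusted p = 0.0178). The direction of the calls also moved with the scaling. After quantile normalization 4 genes were higher and 10 lower, and with arrays centred on bright genes 4 were higher and 6 lower. Under both, the higher ones were Sec24d, Sar1b, Ergic1 and Ergic2, while Tmed3, Mcfd2, Arf4 and Sec23b stayed lower. The counts over all genes under these scalings are not given here, so a shift of all genes was not set apart. None of the 9 calls was kept under every alternative that was run.

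Memory cells, sorted weeks after the response, differed from naive cells at the threshold in none of these genes. In that limma comparison 2.31% of all genes rose and 3.26% fell, and the median log2 fold change was -0.18. At an unadjusted p under 0.05 there were 10 genes, 1 higher and 9 lower, again with no count over all genes to set beside them. The lowest adjusted p was 0.0642, for Lman2 (-0.83 ± 0.24), which read 103 to 249 on memory and 243 to 301 on naive arrays. Golgb1 was the 1 higher, at 0.89 ± 0.34 (adjusted p = 0.168). Up to 4 genes were called when 1 array was left out. The 4 were Sec13, Copb1, Lman2 and Sec22b, all lower, without germinal center replicate 2; 3 were called without germinal center replicate 1, 2 without memory replicate 2, and 1 each without germinal center replicate 3 or naive replicate 1.

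Between memory and germinal center cells, 5 genes were higher in memory and 3 lower (all genes: 11% and 11.5%), with a median log2 difference of -0.04. Higher in memory cells were Tmed3 (1.67 ± 0.21, adjusted p = 3.86e-05), Arf4 (1.27 ± 0.28), Mcfd2 (1.03 ± 0.24), Sec24c (0.99 ± 0.19) and Sec23b (0.79 ± 0.22). Lower were the SNARE Sec22b (-1.28 ± 0.30), Sec13 (-0.89 ± 0.28) and Sar1b (-0.80 ± 0.21). The arrays of Sec13, Sec23b and Mcfd2 overlapped. With the actin ratio as a covariate, Sec23b, Sec24c, Arf4 and Mcfd2 were no longer called.

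**Figure D4:**
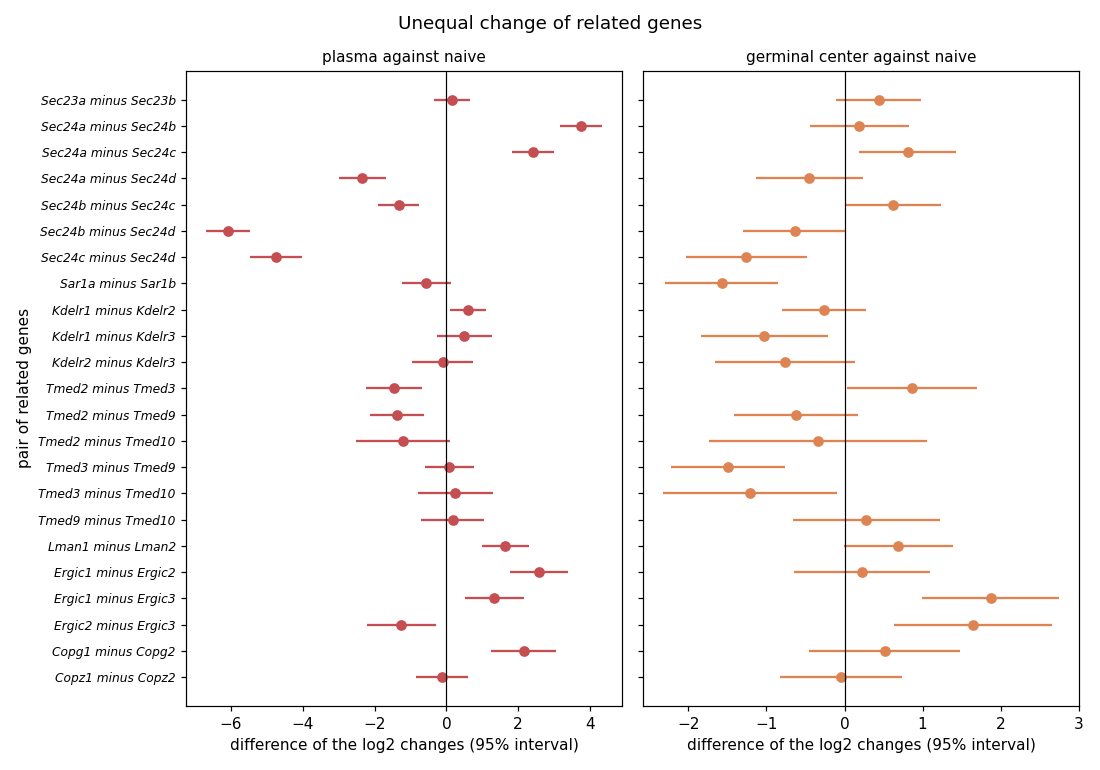
For 23 pairs of related genes, the log2 change of the first minus that of the second, from naive to plasma (left) and from naive to germinal center cells (right), with the 95% interval. In plasma cells Sec24b minus Sec24d lies farthest from 0, at -6.08, and the interval of Sec23a minus Sec23b holds 0; in germinal center cells Sar1a minus Sar1b lies at -1.57.

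Over all 23 pairs, 18 varied over the 4 subsets in the exact permutation test at an adjusted p under 0.05, among them 2 with Tmed2, which was at background on most arrays. Those that missed it were Kdelr2 with Kdelr3, Copz1 with Copz2, and Tmed10 with Tmed2, Tmed3 and Tmed9. For Tmed3 and Tmed10 the adjusted p was 0.0536. Differences between 2 subsets are given with intervals, because the smallest two-sided permutation p is 0.0571 for 4 arrays against 3 and 0.1 for 3 against 3. Members share their arrays, and paralogues can share probe sequences, so the pairs are not independent.

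The 41 genes are a selection from a larger pathway. Of 112 further genes of the same transport steps, 109 were measured, and 37 of these (33.9%) rose and 16 (14.7%) fell in plasma against naive cells (all genes: 14.2% and 16.1%), with a median log2 fold change of 0.18. The Yip family and Golgi membrane proteins had the largest share of rises, with 10 of 15 higher and 1 lower. Rab GTPases and TRAPP subunits were near the shares of all genes, with 4 of 22 higher and 3 lower (18.2% and 13.6%). The other lists had, in the order of higher and lower, 6 of 17 and 5 for SNAREs and fusion factors, 7 of 25 and 2 for Golgi tethers and matrix proteins, 3 of 11 and 1 for further cargo receptors, 4 of 10 and 3 for COPI paralogues and the Arf cycle, and 3 of 9 and 1 for COPII assembly factors. The largest rises were those of Scfd2 (3.17 ± 0.24), a Sec1 family protein, Arfgap3 (3.12 ± 0.22), which switches Arf GTPases off, Nbas (2.54 ± 0.19), of the tether for COPI vesicles at the ER, and Yif1b (2.36 ± 0.38). The largest falls were those of the SNAREs Stx6 (-2.24 ± 0.36), Use1 (-1.71 ± 0.35) and Bnip1 (-1.69 ± 0.34), and Tmed8, which fell by 2.00 ± 0.21. Use1 and Bnip1 act at the ER with the tether that holds Nbas. Adjusted p was at most 0.00178 for these 8 genes.

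In germinal center against naive cells, 2 of the 109 further genes (1.83%) rose and 25 (22.9%) fell, where 8.37% of all genes rose and 11.1% fell. The lowest were Yipf6 (-1.76 ± 0.41), Gosr1 (-1.54 ± 0.30) and Tmem115 (-1.53 ± 0.29), Golgi membrane and SNARE proteins. Rab30, a Golgi Rab GTPase, rose by 1.77 ± 0.27 (adjusted p = 0.000229), from a geometric mean of 186 to 634. The other, Tmed6, lay above background on 1 germinal center array only. In memory against naive cells Trip11, a Golgi tether, was higher (0.98 ± 0.26, adjusted p = 0.0426), and Gorasp2, which stacks the Golgi (-1.01 ± 0.15), and Trappc1 (-0.90 ± 0.14) were lower.

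Plasma-cell probe sets were also counted one by one. Of the 90 probe sets of the 41 genes, 71 were higher in plasma than in naive cells and 1 lower, and of 66 that lay above background on every array, 58 were higher and 1 lower. Among the 27 genes with more than 1 probe set, the second brightest was called higher for 19 and lower for none. The shares called among all probe sets of the array are not given here. At the brightest probe set of each gene, 14.2% of all genes rose and 16.1% fell. The second probe sets not called were of Copa, Copg1, Ergic2 and Stx5a, above background on all 14 arrays, and of Golgb1, Sec24b, Sec24c and Tmed3, above it on at most 2. 8 of the 41 genes were represented by probe sets whose type can also match related transcripts (Preb, Gbf1, Lman1, Tmed9, Surf4, Gosr2, Stx5a and Ergic3).

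Promoters were compared because most of the 41 genes moved together. RefSeq windows of 300 bases were matched to 35 of them, 39 windows in all (not to Arcn1, Golgb1, Kdelr2, Lman1, Tmed2 and Yipf5). The UPRE core was found in 7 of 39 windows on either strand (17.9%), against 0.676% of all 32851 windows of the table and 1.16% of 7920 windows of array genes with at least 19 CpG, the median of the 39. The 7 genes were Sec24d, Kdelr3, Sec23a, Copb1, Copb2, Gbf1 and Stx5a, and in plasma over naive cells they rose by between 0.92 and 5.25. Sec24a, Ergic1, Kdelr1 and Arf4, whose rises were among the 6 largest at the brightest probe sets, had no such match in their windows. For a further 3 of the 7 genes the stretch from -80 to -1 is given, with the UPRE core in capitals as it reads on the other strand, CCACGTCA.
Kdelr3 (chr15:79516328-79516407, plus strand): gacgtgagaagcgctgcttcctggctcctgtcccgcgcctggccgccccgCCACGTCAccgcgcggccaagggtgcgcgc
Copb1 (chr7:114254681-114254760, minus strand): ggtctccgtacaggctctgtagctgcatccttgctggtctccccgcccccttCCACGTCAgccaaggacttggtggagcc
Gbf1 (chr19:46152478-46152557, plus strand): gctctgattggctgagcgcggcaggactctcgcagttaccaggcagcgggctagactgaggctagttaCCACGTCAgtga
The match began at position -30 in Kdelr3, -28 in Copb1, -26 in Sec24d and -12 in Gbf1.

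The core of the Golgi stress response element (GASE), ACGTGGC, known to be bound by TFE3, was found in 13 of 39 windows (33.3%), against 2.58% of all windows and 4.81% of the CpG-rich ones. It overlaps with the UPRE core in the Sec24d, Sec23a, Kdelr3 and Stx5a windows, so the counts are not separate. It was also in the windows of Sec24c, Sec13, Sec31a, Sar1a, Copg1, Tmed3, Tmed9, Mcfd2 and Uso1. The cAMP response element (CRE), TGACGTCA, was in 2 of the 39 windows (5.13%), 1.79% of all and 3.83% of the CpG-rich ones. The short core CCACG, which lies inside both UPRE and GASE cores, was in 71.8% of the 39 windows, 32.8% of all and 57% of the CpG-rich ones. The ER stress response element, CCAAT and CCACG 9 bases apart, and its variant ERSE-II, ATTGG and CCACG 1 base apart, were in none of the 39 windows and in 0.119% and 0.0365% of all. Among 113 windows of the further pathway genes the UPRE core was in 3.54% and the GASE core in 13.3%. A match is a stretch of letters and no evidence of binding.

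**Figure D5:**
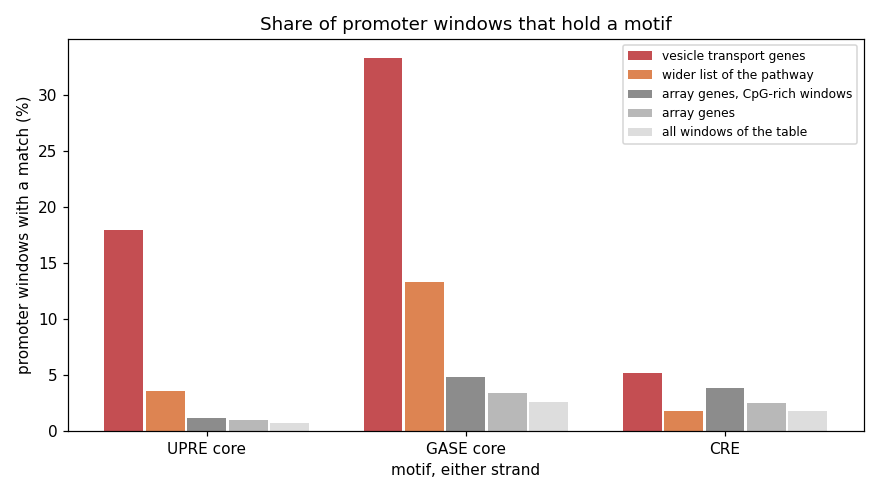
Share of 300-base promoter windows that hold the UPRE core, the GASE core or the CRE on either strand, for the 35 of the 41 genes that have windows, the further genes of the pathway, array genes with CpG-rich windows, all array genes and all windows. Their bars reach 17.9% and 33.3% for the UPRE and GASE cores, and 0.676% and 2.58% of all windows hold them.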

How the data were processed

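RNA of 14 sorted samples was read on Affymetrix mouse arrays, 1 sample per array. The deposited values were linear intensities, summarised by the authors with RMA per the submitters' processing notes; whether all arrays were normalized together is not given in the sources used here. Their number, rather than a read depth, limits the precision. Of 45101 probe sets, 64 controls were left out, 34945 carried 1 gene symbol, 932 carried several and 9160 none; 34741 were matched by Entrez number, which changed 0 symbols. Each gene was read from its brightest probe set with that symbol alone, and intensities were taken to log2 with no further scaling.

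All 14 arrays entered a fit with 1 mean per subset in limma 3.58.1 (R 4.3.3; lmFit and eBayes), with Benjamini-Hochberg adjustment over 18193 genes and a threshold of 0.05. The fit was tested on simulated data. Differences between 23 paralogue pairs were tested by exact permutation with Python 3.11.15, numpy 2.4.6, pandas 2.3.3 and scipy 1.17.1. Their 95% intervals came from an ordinary linear model of the within-array log2 difference. It had 1 mean per subset, a spread pooled over the 4 subsets and a t quantile. A probe set was above background where it exceeded the brightest of 27 unspiked bacterial controls of its array. Values on single arrays are given for the 6 largest calls of plasma against naive cells, for up to 6 of germinal center or memory against naive cells, for genes against the direction of the rest, and for paralogues; other genes of the pathway are given by list, with up to 4 of the largest calls in each direction for plasma cells and up to 3 for the others. The members and all lists were chosen with earlier results of these data known. Alternatives were another scaling, floor, filter, probe set rule, variance model, set of samples, covariate and threshold, and leaving out each array.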

Additional observations from a re-analysis of the deposited data

Results flagged for a closer look

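Among 82 sets of 4 arrays (41 genes in plasma and in memory cells), 2 held an array that stood apart from the other 3 by a gap test, of which chance marks about 1 in 20. Ergic2 read 596 on memory replicate 4 and 343 to 365 on the other memory arrays. Ergic3 read 143 on memory replicate 3 and 71.4 to 77.3 on the other memory arrays. The sets of 3 arrays were not tested in this way.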

How the results depend on the processing

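Calls were compared gene by gene under every alternative except the stricter thresholds (an adjusted p under 0.01 and a 2-fold minimum). In all of these, the calls of plasma cells kept their direction and threshold for 31 of 37 genes against naive cells. The same held for 30 of 39 against germinal center and 32 of 38 against memory cells. It held for 0 of 9 genes between germinal center and naive and 0 of 8 between memory and germinal center cells. Leaving out each array in turn gave 35 to 39 calls for plasma against naive cells, 37 to 39 against germinal center and 37 to 38 against memory cells, 6 to 11 for germinal center against naive, 0 to 4 for memory against naive and 6 to 10 for memory against germinal center cells, and 16 to 19 paralogue pairs against 18. The floor of 16 gave 21 pairs, all but Kdelr2 with Kdelr3 and Tmed9 with Tmed10. Without each array, the medians ran from 1.54 to 1.74, 1.72 to 2.18, 1.82 to 2.02, -0.43 to -0.11, -0.25 to -0.16 and -0.07 to 0.17 in the same order. Centring on bright genes moved the plasma against naive median from 1.62 to 1.86.

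The 9 calls of germinal center against naive cells became 14 after quantile normalization, 5 with an intensity floor of 16, 4 with array weights, 4 with only those subsets fitted, 2 with the actin covariate, 4 at an adjusted p under 0.01 and 5 with a 2-fold minimum. Memory against naive cells, with 0, gave 1 when centred on bright genes, 1 with the background filter, 2 with array weights, 3 with only those subsets and 1 with the actin covariate. Memory against germinal center cells went from 8 to 5 at an adjusted p under 0.01 and to 4 with a 2-fold minimum. With the second brightest probe set, which 27 of the genes have, plasma cells gave 19 calls against naive, 20 against germinal center and 20 against memory cells. For these alternatives, the arrays left out and the replicate block below, the counts over all genes are not given here. Where the brightest or the second probe set was called, the second turned the sign of these log2 fold changes. In germinal center against naive cells they were Sec24c (0.027), Sar1a (0.40), Lman1 (1.54), Tmed3 (0.28), Bet1 (0.63) and Gosr2 (1.70). In plasma against naive cells it was Copa (-0.12). Against germinal center cells, plasma cells had Sec24c (-0.11), Gbf1 (-0.12) and Tmed3 (-0.042), and against memory cells Sec24b (0.14) and Copa (-0.80). In memory against germinal center cells they were Arcn1 (-0.91), Kdelr2 (-0.53), Tmed3 (-0.30), Tmed9 (0.53) and Gosr2 (-1.90). Of these second probe sets, those of Sec24c, Sec24b and Tmed3 were above background on 2, 1 and 0 of 14 arrays, and that of Bet1 on 8. Their turned signs say little about the RNA. Signs also turned where neither the brightest nor the second probe set was called. With second probe sets above background on all 14 arrays, germinal center against naive cells gave Arcn1 (0.49), Copb2 (-0.38), Kdelr2 (0.31), Lman2 (0.22), Ergic2 (-0.59) and Yipf5 (-0.48). Sec24c (-0.081), with a second probe set above background on only 2 arrays, turned in plasma against naive cells. Where either fit was called, the mean of all probe sets turned Gosr2 in germinal center against naive (0.70) and memory against germinal center cells (-0.94). The cause was not tested.

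The labels' replicate numbers do not pair the arrays: the deviations of same-numbered arrays correlated at over 0.1 in 6 of 19 pairs (-0.32 to 0.25), and 3 of 14 arrays correlated best with their own number. With the replicate block 10, 37 and 7 genes were called for germinal center against naive, plasma against naive and memory against germinal center cells, and 16 of 23 paralogue pairs passed, with Sec23a and Sec23b and Kdelr1 and Kdelr2 lost. Against naive cells the block lost the fall of Sec24b in plasma cells (-0.79, adjusted p = 0.0511) and gained Sec24c (0.56, adjusted p = 0.00493). Signals near background limit Sec31a, Kdelr3, Tmed2 and Copz2.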
